A study of Mus musculus with 39 samples.

Results

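The EGF receptor family and its ligands were followed across 39 mouse RNA libraries in 14 groups. The 8 genes were taken by symbol from a count table of 55011 genes: the ligands Areg, Ereg, Hbegf, Btc and Tgfa, and the receptors Egfr, Erbb2 and Erbb3. Levels are CPM, a gene's reads scaled to a common library total, and libraries held 2372139 to 10974862 counts, so that 3 counts, used here as the floor of detection, stood for 0.273 to 1.26 CPM in a single library. All animals of the muscle groups had been injured in the hindlimb with cardiotoxin, a venom peptide that kills muscle fibres and starts their regeneration. The colon group had no injury, and no ages were found in the labels.

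T cells bearing the Vγ6 receptor chain, a γδ T cell type known for making interleukin 17A, were sorted from the colonic lamina propria of uninjured wild-type mice (n = 3) and from wild-type muscle 3 days after injury (n = 3). Neither group had another treatment. Whole tibialis anterior muscle came from wild-type (WT) and Tcrd-DTR mice on days 1, 3, 7 and 14, with n = 3 in each group except n = 2 for Tcrd-DTR on day 7. Tcrd-DTR mice carry a diphtheria toxin receptor tied to the δ chain locus of the T cell receptor, and both genotypes had received intraperitoneal diphtheria toxin, so the WT controls carry the toxin too. Satellite cells, the stem cells of muscle, were sorted on day 1 from toxin-treated WT (n = 3) and Tcrd-DTR mice (n = 3). In a further experiment, wild-type mice received PBS (n = 2) or recombinant interleukin 17A (rIL-17A, n = 2) by the intraperitoneal and intramuscular routes, and the muscle was taken on day 7.

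EGF family ligands are made as membrane-bound precursors that proteases such as Adam17 cut free, and they bind receptor tyrosine kinases on the same or on neighbouring cells. Areg, Tgfa and Egf bind Egfr, while Hbegf, Ereg and Btc bind both Egfr and Erbb4. Erbb2 has no known ligand and signals as the partner of the other receptors, and Erbb3, which binds neuregulins, has a kinase of little activity and also needs a partner. In injured muscle, amphiregulin, the product of Areg, is known as a repair factor made by regulatory T cells, and Hbegf is also known as the protein through which diphtheria toxin enters cells. Mouse Hbegf binds the toxin poorly, which is why a receptor transgene makes mouse cells sensitive to it.

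On the mm10 build, 3 ligand genes lie close together on chromosome 5: Ereg at chr5:91074622-91093646 (plus strand), Areg at chr5:91139599-91148432 (plus strand) and Btc at chr5:91357261-91402994 (minus strand). Tgfa is at chr6:86195223-86275719 (plus strand). Egfr at chr11:16752203-16918158 and Erbb2 at chr11:98412470-98437716 are both on the plus strand, and Erbb3 is at chr10:128567523-128589652 on the minus strand. RefSeq promoters of the GRCm38.p6 build were matched for 5 of the 8 genes (Areg, Btc, Tgfa, Egfr and Erbb2). The 250 bases before the start are shown for the ligand and the receptors whose levels differed most between cell types, at chr5:91139349-91139598 for Areg, chr11:16751953-16752202 for Egfr and chr11:98412234-98412483 for Erbb2, all on the plus strand. The last bases of the Erbb2 window lie inside the longer gene model of the GENCODE annotation. Capitals mark matches, on either strand, to the cAMP response element TGACGTCA, the GC box GGGCGG, the TATA box TATAAA or the AP-1 site TGANTCA, motifs that do not overlap one another in these windows.
Areg promoter: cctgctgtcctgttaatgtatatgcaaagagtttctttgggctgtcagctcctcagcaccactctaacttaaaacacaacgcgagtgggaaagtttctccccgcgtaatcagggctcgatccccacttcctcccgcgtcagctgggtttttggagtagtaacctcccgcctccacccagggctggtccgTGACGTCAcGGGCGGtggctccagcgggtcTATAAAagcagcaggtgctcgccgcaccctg
Egfr promoter: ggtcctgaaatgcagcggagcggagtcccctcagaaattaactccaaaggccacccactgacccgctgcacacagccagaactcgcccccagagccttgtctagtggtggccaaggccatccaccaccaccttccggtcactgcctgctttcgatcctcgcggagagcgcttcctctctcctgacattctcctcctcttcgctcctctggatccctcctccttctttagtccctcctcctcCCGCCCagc
Erbb2 promoter: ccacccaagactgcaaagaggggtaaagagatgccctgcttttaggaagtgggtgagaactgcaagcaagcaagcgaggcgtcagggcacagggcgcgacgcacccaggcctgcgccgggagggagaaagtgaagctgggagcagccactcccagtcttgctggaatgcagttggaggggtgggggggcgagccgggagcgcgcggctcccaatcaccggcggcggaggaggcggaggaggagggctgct

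The Areg window held 1 cAMP response element, 61 bases before the start, 1 GC box at 52 bases and 1 TATA box at 31 bases. Of 32817 promoter windows of that length, 1.55% held a cAMP response element, 32.7% a GC box, 12.4% a TATA box and 6.75% an AP-1 site. In Egfr the match was 1 GC box, 9 bases before the start, written as its reverse complement CCGCCC, and the Erbb2 window held none of the 4 motifs. The windows of Btc and Tgfa, not shown, held no match and 2 GC boxes. These matches are letters in a window, and binding was not measured.

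Areg, the gene of amphiregulin, was a transcript of the sorted Vγ6 cells. The 3 Vγ6 libraries from injured muscle held 80.2, 89.2 and 123 CPM, and those from colon 153, 48.8 and 30.7 CPM. Satellite cells came next, with 7.13, 11.3 and 6.38 CPM in WT and 5.09, 22.8 and 7.97 CPM in Tcrd-DTR. Each Vγ6 library was above every satellite cell library, and every satellite cell library was above every whole muscle library, which ranged from 0 to 3.70 CPM. Whole muscle held no Areg count in any of the 9 libraries of day 7, whatever the genotype or treatment. In the 3 WT libraries of that day together, 3 counts would be 0.125 CPM.

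Against the colon, Areg in Vγ6 cells from muscle had a log2 change of 0.32 ± 0.69 (SE) and an adjusted p of 0.795 (edgeR quasi-likelihood test, Benjamini-Hochberg adjustment over all genes tested, as for every adjusted p here). The 3 colon libraries spread so widely that the muscle libraries fell inside their range. Colon replicate 1 decided this value: without it the log2 change was 1.26 with an adjusted p of 0.000718, and without colon replicate 3 it was -0.08.

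Set beside the whole muscle of WT mice on the same day 3, the Vγ6 cells from muscle held far more Areg. The whole muscle libraries had 0.923, 0.959 and 2.52 CPM, and the log2 change was 6.20 ± 0.35 (adjusted p = 2.96e-08). Areg passed the filter on low counts only through the Vγ6 cells, so it had to differ once tested. In that comparison of sorted cells with tissue, 68.3% of all tested genes passed the threshold of an adjusted p under 0.05, and 2 of 5 tested family members did, Areg upward and Egfr downward. Without WT replicate 3 of day 3, 4 of the members were called. The sorted cells and the tissue also differ in how the RNA was obtained, and in the animals, which carried diphtheria toxin only in the tissue groups. The defining T cell genes separated the 2 sources: the summed level of the 6 listed T cell markers was 4151 ± 68.6 CPM in the Vγ6 cells from muscle and 11.1 ± 2.05 CPM in the muscle. In bulk samples, fewer cells of a type and less RNA per cell cannot be told apart.

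**Figure D1:**
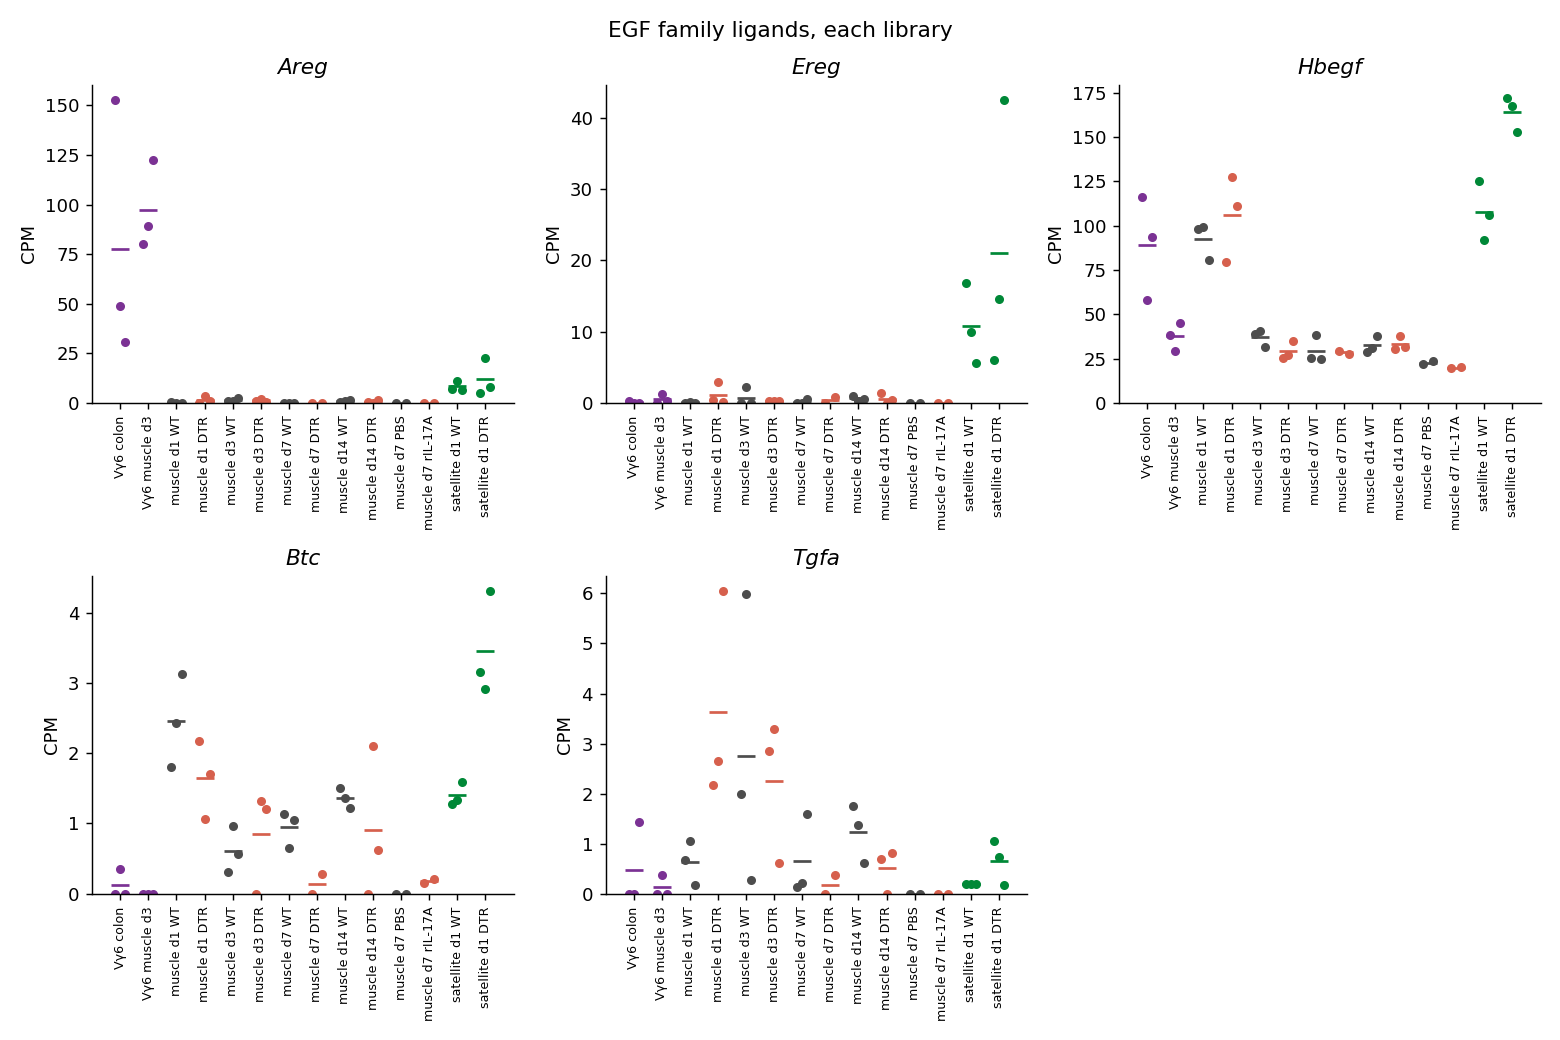
Levels of the 5 ligand genes, in CPM on a linear axis whose range differs between panels, for each library (points) and the mean of each group (bars). Areg stood highest in the 6 Vγ6 libraries (30.7 to 153 CPM), Ereg in the 6 satellite cell libraries (5.58 to 42.5 CPM), and Hbegf was detected in every library (19.9 to 172 CPM).

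Ereg, the gene of epiregulin and the neighbour of Areg on chromosome 5, was a transcript of satellite cells. The WT satellite cell libraries held 16.8, 9.94 and 5.58 CPM, and the Tcrd-DTR libraries 5.97, 14.6 and 42.5 CPM. No library of any other group reached 3 CPM, and the Vγ6 cells, which held the most Areg, had 0 to 1.29 CPM. The next highest values were 2.91 CPM in replicate 2 of day 1 Tcrd-DTR muscle and 2.16 CPM in replicate 2 of day 3 WT muscle. Genes of olfactory and vomeronasal receptors, which serve smell and pheromone sensing, summed to 2788 and 1467 CPM in these libraries, the most of their days, and the first also held the highest Areg of whole muscle. The part of such scattered reads in low counts was not tested. An antisense gene, Gm19610, overlaps exons of Ereg, and held 0 to 4 counts in a group.

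Satellite cells of WT mice were compared with the whole WT muscle of day 1, where 60.5% of all tested genes passed the threshold. Of 6 tested members, 5 did: Areg, Ereg, Egfr and Erbb2 were higher in the sorted cells and Erbb3 was lower. Areg and Ereg passed the filter on low counts only through the sorted cells, and Erbb3 only through the muscle. These genes had to differ once tested, so their adjusted p values and the tally of 5 carry little weight. Whole muscle held 2 counts of Areg over its 3 libraries against 130 in satellite cells, a ratio of 65.9 after division by the totals (exact 95% interval 17.9 to 549.6, counting error only; adjusted p = 3.87e-05). For Ereg it was 1 count against 172, a ratio of 174 (30.9 to 6923; adjusted p = 9.49e-06). The same comparison left Hbegf with a log2 change of -0.19 ± 0.18 (adjusted p = 0.37), a value that took the other sign, 0.21, when libraries were scaled by their totals alone. Satellite markers summed to 8985 ± 1021 CPM in the sorted WT cells and 6156 ± 859 CPM in the muscle, where Des, which fibres also express, made up 5765 CPM. Muscle fibre markers summed to 51.4 ± 4.88 CPM in the sorted cells and 105935 ± 11908 CPM in the muscle. Genes listed for fibro-adipogenic cells summed to 7455 ± 1043 CPM in the sorted cells, with Dcn at 2712 CPM and Pi16 at 0.443 CPM, against 3846 ± 358 CPM in the muscle. The part of these cells in the result was not tested.

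Hbegf, the gene of heparin-binding EGF-like growth factor, was the ligand detected in every library, with 87 counts or more. Its order was led by Tcrd-DTR satellite cells, followed by WT satellite cells, both day 1 muscle groups and the Vγ6 cells from colon. These last 4 groups each overlapped the next in that order, while the Tcrd-DTR satellite cells lay above them and the colon cells above the Vγ6 cells from muscle. The lowest means were those of the day 7 muscle of the cytokine experiment, 22.7 ± 1.06 CPM with PBS and 19.9 ± 0.0923 CPM with rIL-17A (SD, n = 2 each).

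The level of Hbegf in WT muscle was highest on day 1. The libraries held 98.4, 99.0 and 80.9 CPM on day 1, 38.9, 40.5 and 31.3 CPM on day 3, 25.2, 38.2 and 24.8 CPM on day 7 and 28.5, 30.8 and 38.0 CPM on day 14. Every day 1 library was above every later one. From day 1 to day 3, Hbegf fell by 1.73 ± 0.22 on the log2 scale (adjusted p = 3.74e-07), and 18.9% of all tested genes passed the threshold in that step. It was the 1 member of 8 called there, and 2 were called without WT replicate 1 of day 3. Tcrd-DTR muscle had 79.7, 127 and 111 CPM on day 1 and 25.5, 26.8 and 35.2 CPM on day 3.

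From day 3 to day 7 the direction for Hbegf depended on the scaling, and no call was made. The log2 change was 0.48 ± 0.22 with TMM scaling (adjusted p = 0.0873) and -0.33 with library totals alone, a choice that moved the median of all genes by -0.74. The same choice moved that median by 0.40 from day 1 to day 3, where Hbegf fell under both scalings. Log2 changes here are relative to the TMM scaling, so they can differ from the ratio of 2 CPM means. Neutrophil markers, which are among the cells of early injury, summed to 142 ± 90.8 CPM on day 1, 89.7 ± 42.0 CPM on day 3 and 13.8 ± 11.5 CPM on day 7 in WT muscle. From day 1 to day 3 the means of these markers moved in both directions. S100a8 went from 36.51 to 7.915 CPM and S100a9 from 32.78 to 3.301 CPM. Cxcr2 went from 14.01 to 0.7144 CPM and Mmp9 from 23.02 to 13.21 CPM. Csf3r rose from 29.68 to 41.31 CPM and Mmp8 from 4.184 to 22.65 CPM. The other listed markers, Retnlg and Ly6g, were lower on day 3. The part of neutrophils in the result was not tested.

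In Vγ6 cells, Hbegf was lower in injured muscle than in colon. The muscle libraries held 38.2, 29.5 and 45.3 CPM and the colon libraries 116, 57.8 and 93.9 CPM, with no overlap. The log2 change was -1.27 ± 0.23 (adjusted p = 0.000984), in a comparison in which 24.5% of all tested genes passed the threshold. Of 5 tested members 3 did, with Hbegf and Egfr lower and Erbb2 higher in the cells from muscle. Erbb2 was tested only because it passed the filter on low counts through the cells from muscle, so the tally is no measure of the family.

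Satellite cells from Tcrd-DTR mice held 172, 167 and 153 CPM of Hbegf, and those from WT mice 125, 92.1 and 106 CPM. All 3 Tcrd-DTR libraries were above all 3 WT libraries. The log2 change of 0.60 ± 0.14 had an unadjusted p of 0.00138 in edgeR but an adjusted p of 0.699 and was not called. Leaving out 1 library at a time gave 0.49 to 0.71, with no call. Whether reads of the diphtheria toxin receptor transgene were counted as Hbegf in the Tcrd-DTR groups was not tested. No gene of the whole table passed the threshold in this comparison with edgeR, so 0% were called, although 719 had an unadjusted p under 0.05, and DESeq2 called 7. None of the 6 tested members was called by either tool. T cell markers were low in both sets of sorted cells, at 2.21 ± 1.03 CPM in WT and 1.11 ± 0.287 CPM in Tcrd-DTR. In WT, Trdc, the δ chain constant gene, made up 1.96 CPM and was above the floor in every library, at 1.195 CPM or more. Muscle fibre markers ranged from 42.3 to 2543 CPM over the Tcrd-DTR libraries.

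Btc and Tgfa, the genes of betacellulin and transforming growth factor α, were rare in all groups. Btc had group means of 0 to 3.46 CPM, highest in Tcrd-DTR satellite cells, where the libraries held 3.16, 2.92 and 4.32 CPM against 1.28, 1.34 and 1.59 CPM in WT. These groups did not overlap, with a log2 change of 1.29 ± 0.46 (adjusted p = 0.805). No Btc count was found in Vγ6 cells from muscle, which allows up to 0.181 CPM over the 3 libraries, or in PBS muscle. Tgfa had group means of 0 to 3.63 CPM, highest in day 1 Tcrd-DTR muscle, with 2.18, 2.64 and 6.05 CPM against 0.677, 1.04 and 0.174 CPM in WT. These groups did not overlap, with a log2 change of 2.42 ± 0.99 (unadjusted p = 0.02 in edgeR, adjusted p = 0.998). Olfactory and vomeronasal receptor genes did not overlap either, at 1027, 2788 and 1065 CPM in Tcrd-DTR and 818, 615 and 489 CPM in WT. In WT muscle of days 3 and 7 the library with the most of them held the most Tgfa, 6.00 and 1.59 CPM. No other group of the time course showed this. In day 1 Tcrd-DTR muscle the library with 2788 CPM of them held 2.64 CPM of Tgfa, and that with 1065 CPM held 6.05. In WT muscle of day 14 the library with the most, 1763 CPM, held the least Tgfa, 0.607 CPM. The part of these receptor genes was not tested. An antisense gene, Gm43917, overlaps exons of Tgfa and held 0 to 7 counts in a group.

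Egfr, the receptor of all 5 ligands, was a transcript of satellite cells. The WT libraries held 204, 207 and 187 CPM and the Tcrd-DTR libraries 173, 199 and 218 CPM, and no other library exceeded 46.2 CPM. Against the whole WT muscle of day 1 (23.2, 37.4 and 31.4 CPM), the log2 change was 2.29 ± 0.18 (adjusted p = 9.89e-08). Between Tcrd-DTR and WT satellite cells the ranges overlapped and the log2 change was -0.02 ± 0.14 (adjusted p = 0.986). Fibro-adipogenic cells, whose listed markers are given above, are known to express Egfr as well.

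**Figure D2:**
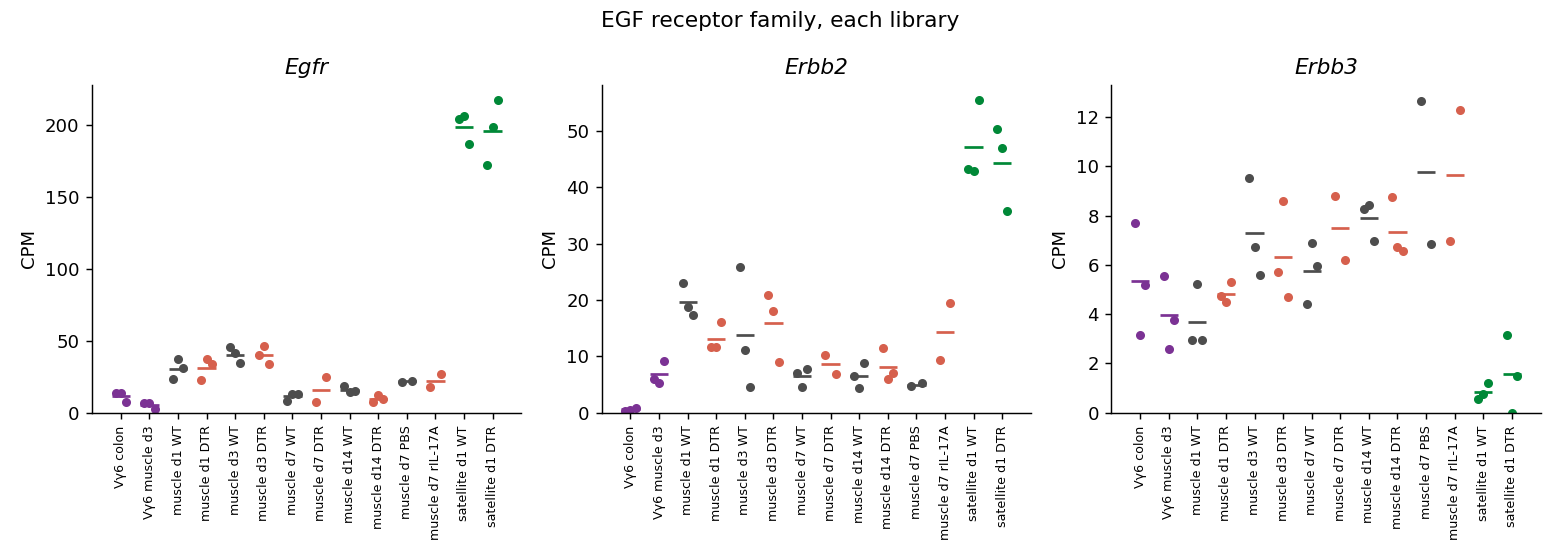
Levels of the 3 receptor genes, in CPM on a linear axis whose range differs between panels, for each library (points) and the mean of each group (bars). Egfr (173 to 218 CPM) and Erbb2 (35.7 to 55.4 CPM) stood highest in the 6 satellite cell libraries, where Erbb3 had its lowest means (0.836 and 1.55 CPM).

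Egfr in whole WT muscle of the time course was higher on days 1 and 3 than later. The libraries held 45.7, 41.3 and 34.4 CPM on day 3, 8.39, 13.3 and 12.9 CPM on day 7 and 18.5, 14.4 and 14.9 CPM on day 14. PBS muscle of day 7, also from wild-type mice, held 21.3 and 22.3 CPM, above every WT library of days 7 and 14. In the time course Egfr fell by 1.02 ± 0.28 on the log2 scale from day 3 to day 7 (adjusted p = 0.00397), and the groups did not overlap. In that step 36.9% of all tested genes passed the threshold, and 2 of 8 members did, Egfr and Areg. With the groups of days 3 and 7 fitted alone, 1 of the 8 was called. Areg went from 19 counts on day 3 to 0 on day 7, at least 10.6-fold lower if day 7 is set to 3 counts in all (adjusted p = 0.0105). It was the 1 member called from day 7 to day 14, with 10 counts on day 14, at least 7.27-fold higher (adjusted p = 0.0255), where 17.3% of all tested genes passed. That last call was lost when days 7 and 14 were fitted alone, and without WT replicate 1 or 2 of day 7 or replicate 3 of day 14. The olfactory and vomeronasal receptor genes moved with it, summing to 260, 530 and 1335 CPM in the WT libraries of day 7 and 1507, 1558 and 1763 CPM in those of day 14. Their part in the result was not tested.

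Vγ6 cells had the lowest Egfr of all groups when they came from muscle, with 6.52, 6.65 and 2.38 CPM. The colon cells had 13.8, 13.8 and 7.67 CPM, and the log2 change was -1.20 ± 0.41 (adjusted p = 0.0459). The groups did not overlap, but the call was close to the threshold. It was lost with DESeq2 (adjusted p = 0.0529), with library totals alone (0.051) and when any of 5 of the 6 libraries was left out (0.0606 to 0.151). Against whole WT muscle on day 3, Egfr in the Vγ6 cells had a log2 change of -2.90 ± 0.34 (adjusted p = 1.25e-05).

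Erbb2, the partner receptor without a ligand of its own, was also highest in satellite cells. WT libraries held 43.1, 42.8 and 55.4 CPM and Tcrd-DTR libraries 50.4, 46.9 and 35.7 CPM, and all 6 were above every other library. Against whole WT muscle on day 1, with 17.3 to 23 CPM, the log2 change was 0.86 ± 0.23 (adjusted p = 0.00531). Whole WT muscle held 25.8, 11.03 and 4.47 CPM on day 3, a range that took in the whole day 1 group, and 4.36 to 8.81 CPM on days 7 and 14.

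Vγ6 cells from colon held almost no Erbb2, with 1, 3 and 5 counts in 3 libraries, or 0.256, 0.522 and 0.892 CPM. The cells from muscle held 37, 28 and 46 counts, or 6.03, 5.17 and 9.11 CPM. The log2 change was 3.46 ± 0.60 (adjusted p = 0.000592), the groups did not overlap, and the call held under every alternative that was run. Erbb2 passed the filter on low counts only through the cells from muscle. It therefore had to differ once tested, and alternatives that keep this filter add little. Erbb2 shares exon positions with Mien1 on the other strand, and whether the counting used strand is not stated in the labels or notes. Mien1 had 70.2 ± 5.62 CPM in the cells from muscle and 55.5 ± 3.94 CPM in those from colon, so it too was higher in muscle. Muscle fibre markers summed to 13.8 ± 9.10 CPM in the cells from muscle and 88.9 ± 24.5 CPM in those from colon, where Neb alone made up 85.6 CPM against 5.13 CPM in muscle. The other fibre markers were higher in the cells from muscle, with Ttn at 7.09 against 2.87 CPM, Ckm at 0.688 against 0.316 CPM, Myh2 at 0.194 against 0.119 CPM, and Acta1 and Myh4 at 0.355 CPM each against 0. Their part in the result was not tested. Satellite cell markers summed to 5.29 ± 4.35 and 5.10 ± 1.23 CPM, and Myf5, which marks satellite cells, was at 0 in both.

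Muscle treated with rIL-17A held 9.32 and 19.4 CPM of Erbb2, and PBS muscle 4.64 and 5.29 CPM. The groups did not overlap and the log2 change was 1.35 ± 0.46 (adjusted p = 0.0368), the 1 call among 4 tested members, where 34.1% of all tested genes passed. Hbegf, at 19.88 and 20.01 CPM against 22.0 and 23.5 CPM, did not overlap either, but its log2 change was -0.33 ± 0.30 (adjusted p = 0.408). For Erbb2, DESeq2 gave an adjusted p of 0.0753, and the call was lost without either rIL-17A library (0.0534 and 0.453). With library totals alone, which moved the median of all genes by 0.20, the log2 change was 1.52. Mien1 went the other way, with 23.3 ± 1.36 CPM against 37.7 ± 6.74 CPM. Satellite cell markers moved with Erbb2, summing to 8421 ± 225 CPM with rIL-17A and 2825 ± 346 CPM with PBS, of which Des made up 8145 and 2631 CPM. Macrophage markers summed to 558 ± 87.0 and 1475 ± 296 CPM, endothelial markers to 288 ± 7.37 and 138 ± 9.18 CPM, and epithelial markers, mostly Krt18, to 62.6 ± 7.27 and 263.5 ± 104 CPM. Their part in the result was not tested.

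**Figure D3:**
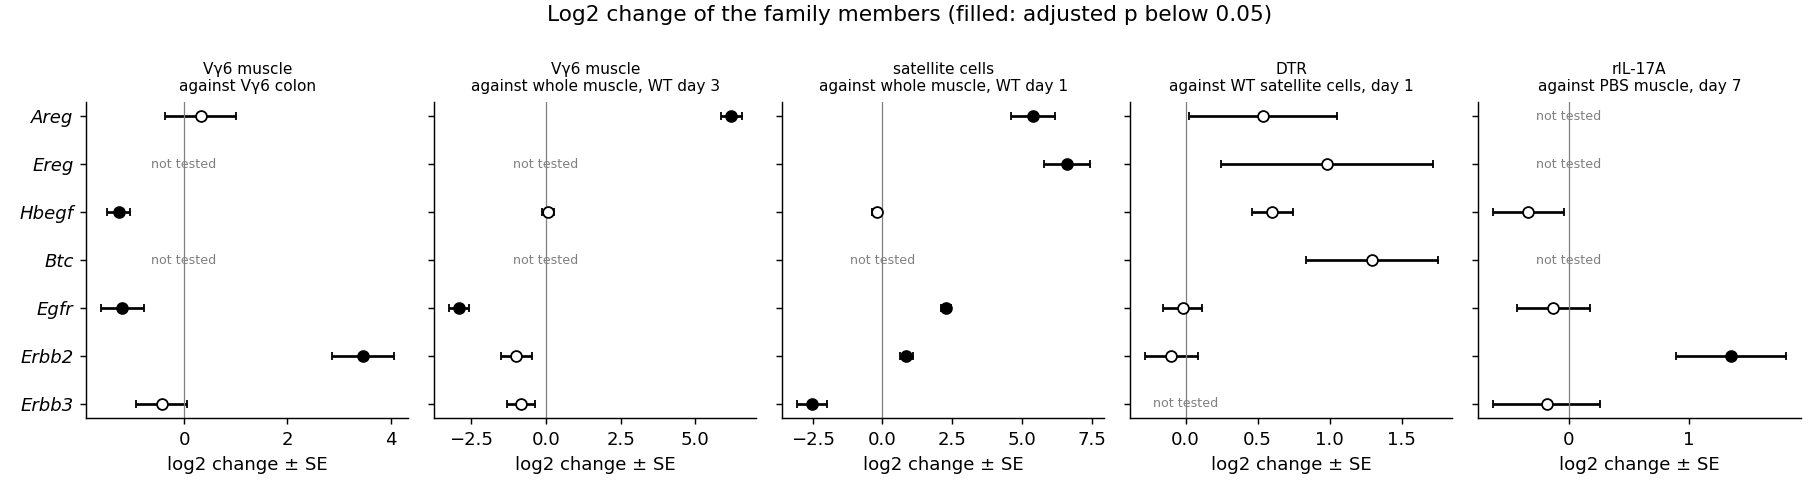
Log2 change with its SE (bars) of each family member tested in at least 1 of 5 comparisons, filled where the adjusted p was under 0.05 (horizontal axis in log2 units, with its own range in each panel). Erbb2 was higher in Vγ6 cells of muscle than of colon (3.46) and with rIL-17A (1.35), and no member was called between Tcrd-DTR and WT satellite cells.

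Erbb3, the neuregulin receptor, was low in all groups, with means of 0.836 to 9.77 CPM. Unlike the other receptors it was lowest in satellite cells, with 0.549, 0.765 and 1.20 CPM in WT and 3.16, 0 and 1.49 CPM in Tcrd-DTR. Against the whole WT muscle of day 1, with 2.93, 5.21 and 2.96 CPM, the log2 change was -2.52 ± 0.54 (adjusted p = 0.00104). In this comparison Erbb3 passed the filter on low counts only through the muscle, so it had to differ once tested. Schwann cells are known for Erbb3, and their 10 listed markers summed to 283 ± 15.4 CPM in WT satellite cells and 178 ± 50.6 CPM in the muscle. Of those markers, Sox10 stood at 0.319 CPM in the sorted cells and 1.28 CPM in the muscle.

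Per kilobase of the longest transcript, which allows levels to be compared between genes if reads cover whole transcripts, Hbegf led in WT satellite cells, at 37.3 ± 5.72 CPM per kilobase, ahead of Egfr at 19.5 ± 1.06, Erbb2 at 9.40 ± 1.43 and Areg at 6.80 ± 2.17. In WT muscle of day 1, Hbegf stood at 32.1 ± 3.57 CPM per kilobase and no other member exceeded 3.93. Vγ6 cells from muscle had the opposite order of ligands, with Areg at 80.2 ± 18.5 CPM per kilobase and Hbegf at 13.0 ± 2.74.

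The time course was compared between genotypes, a comparison that asks what the loss of γδ T cells does to regenerating muscle. No family member was called between Tcrd-DTR and WT muscle on any day. All 8 were tested on each day, though Areg had no counts on day 7, and the share of all tested genes called was 0% on day 1, 0% on day 3, 2.01% on day 7 and 0.0767% on day 14. The 368 genes called on day 7 became 26 without Tcrd-DTR replicate 2. On day 1 edgeR found 777 genes with an unadjusted p under 0.05 and on day 3 873, while DESeq2 called 0 and 1. Trdc, the δ chain constant gene, had 8 counts on day 1 in WT and 7 in Tcrd-DTR, and 14 against 0 on day 3, 11 against 0 on day 7 and 10 against 2 on day 14.

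On day 1 Erbb2 had 11.6, 11.6 and 16.1 CPM in Tcrd-DTR, all below the WT range of 17.3 to 23 CPM, with no call. Ereg had 0.363, 2.91 and 0.189 CPM in Tcrd-DTR on that day and 0, 0.174 and 0 CPM in WT, or 14 counts against 1. Areg had 0.182, 3.70 and 0.946 CPM in Tcrd-DTR and 0.451, 0 and 0 CPM in WT, or 20 counts against 2, with overlap and no call. Tcrd-DTR replicate 2 held 11 of those Ereg counts and 14 of those Areg counts. It also held 2788 CPM of olfactory and vomeronasal receptor genes, whose part was not tested. Hbegf overlapped between genotypes on each of the 4 days. Egfr on day 7 had 7.33 and 24.9 CPM in the 2 Tcrd-DTR libraries, on both sides of the WT range of 8.39 to 13.3 CPM, and its log2 change of 0.67 became -0.29 without Tcrd-DTR replicate 2. Without Tcrd-DTR replicate 1, 1 member was called on that day. On day 14 the Tcrd-DTR libraries had 7.34, 12.2 and 9.23 CPM of Egfr, all below the 3 WT libraries, with no call. The interaction of genotype with time was called for 0 of 8 members and for 0.608% of all tested genes, and Egfr had the lowest unadjusted p of the members, 0.0255.

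Over all 4 days, 5 of 8 members changed in WT muscle, where 53.7% of all tested genes did. These were Hbegf (adjusted p = 4.97e-08), Egfr (0.00426), Areg (0.016), Erbb2 (0.0169) and Erbb3 (0.021). In Tcrd-DTR muscle, 4 of 8 changed, with 56.2% of all tested genes: Hbegf (5.96e-09), Egfr (0.000875), Erbb3 (0.00884) and Tgfa (0.0429). These shares are near those of all genes. The interaction tested, for each gene alone, whether its time course differed between genotypes. Whether the sets of called genes differ was not tested. Without replicate 1 of day 1 in WT, 3 of 8 members were called in WT muscle, and without replicate 1 of day 7 in Tcrd-DTR, 2 of 8 in Tcrd-DTR muscle.

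**Figure D4:**
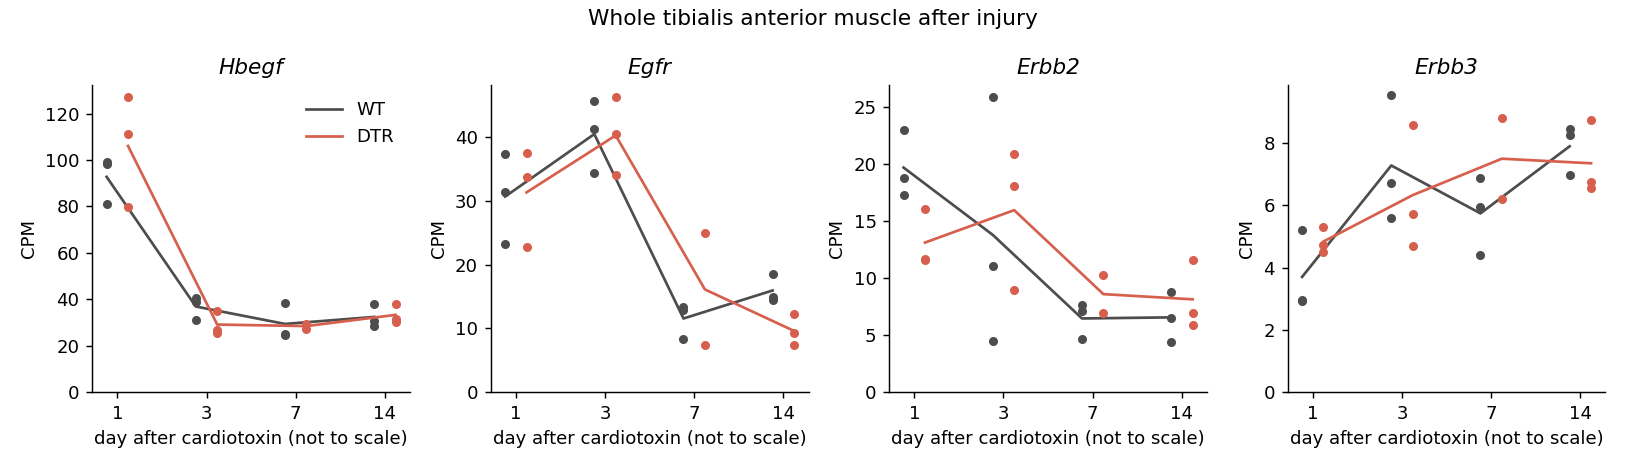
Levels in whole tibialis anterior muscle, in CPM, of Hbegf, Egfr, Erbb2 and Erbb3 by day after injury (days evenly spaced, not to scale) for each library (points) and the group means (lines) of WT and Tcrd-DTR mice. Hbegf was at 79.7 CPM or more on day 1 and at 40.5 CPM or less from day 3 on in both genotypes.

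Other genes of the pathway were counted from lists. In Vγ6 cells, 8 of 16 tested feedback inhibitors were called, 7 lower and 1 higher in muscle than in colon, beside 24.5% of all tested genes, with a list median log2 change of -0.71. They include Dusp6, a phosphatase of ERK, at 26.6 against 165 CPM (log2 change -2.67 ± 0.16, adjusted p = 8.06e-09). Spry1, an inhibitor of receptor signalling, stood at 11.4 against 92.5 CPM and Cblb, a ubiquitin ligase, at 133 against 305 CPM. Of 7 tested genes of the ERK response, 4 were lower and none higher: Fos stood at 790 against 4385 CPM (log2 change -2.50 ± 0.11, adjusted p = 7.76e-10), with Myc and Egr2, all transcription factors, also among them. Of 5 tested genes of ligand release, 3 were higher: Adam17, the main protease of EGF family ligands, at 123 against 79.2 CPM (log2 change 0.60 ± 0.13, adjusted p = 0.00393), its partner Rhbdf2 at 98.1 against 53.7 CPM, and Adam12. Among 19 adaptors and kinases 3 were higher and 2 lower. Many of these genes also answer to other receptors.

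In WT muscle, 5 of 11 ERK response genes fell and 2 rose from day 1 to day 3, where 18.9% of all tested genes were called. Etv4, which went from 0.922 to 6.46 CPM, and Ccnd1, the gene of cyclin D1, from 19.5 to 76.8 CPM, were those that rose, and are named after their values were seen. From day 3 to day 7, where 36.9% of all tested genes were called, 6 fell and 0 rose. Fosl1, a transcription factor, was at 29.0 CPM on day 1, 9.10 CPM on day 3 and 0.0914 CPM on day 7. Errfi1, which binds and inhibits Egfr, fell from 287 to 116 CPM between days 1 and 3 (log2 change -1.69 ± 0.25, adjusted p = 3.84e-06), among 6 of 18 feedback inhibitors that fell and 2 that rose. From day 3 to day 7, 8 of the 18 fell and 2 rose. Frmd8, which stabilises the Adam17 complex, and Rhbdf2 were among 3 of 8 ligand release genes that fell. Egf was called higher (adjusted p = 0.0223), at 14.7 CPM on day 3 and 16.8 CPM on day 7. Its day 7 range of 15.5 to 19.15 CPM lay inside the day 3 range of 8.61 to 19.9 CPM. That call is relative to the TMM scaling, and the scaling set the direction for Hbegf in this step, as given above. The fourth receptor, Erbb4, went from 1.08 CPM on day 7 to 6.53 CPM on day 14 (log2 change 2.55 ± 0.69, adjusted p = 0.0077), a step in which the olfactory and vomeronasal receptor genes were higher on day 14, as given above. It was at 0 in PBS and rIL-17A muscle, where those genes summed to 11.7 to 24.6 CPM.

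Satellite cells differed from whole WT muscle of day 1 in many of the listed genes, as in most genes. Of 11 ERK response genes 7 were higher and 1 lower, and of 18 feedback inhibitors 8 were higher and 2 lower, beside 60.5% of all tested genes called. With rIL-17A, 3 of 16 tested feedback inhibitors were higher and 1 lower, a share below the 34.1% of all tested genes called. Errfi1 was among those higher, at 52.0 against 15.5 CPM (log2 change 1.60 ± 0.27, adjusted p = 0.000963), and Fos was among 2 of 9 ERK response genes that were lower, at 4.84 against 20.6 CPM. None of the listed pathway genes was called between Tcrd-DTR and WT satellite cells.

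Over the 14 group means of log2 CPM, the genes whose pattern was most like each member's were found among 12577 genes. For Areg they included Clk3 and D16Ertd472e (Pearson r 0.97 for both), and for Ereg they were Col17a1, Chrdl2 and Il11 (0.96 to 0.97). Hbegf was nearest to Atf4, Taf4b and Cxcl2 (0.92 to 0.93), and Egfr to Qsox2, Cyth3 and Gsto1 (0.97 to 0.98). For Erbb2 the nearest were Pmm1, Fam98a and Plcd3 (0.94 to 0.95), and for Erbb3 Tmem37, Nudt7 and Smim20 (0.96 to 0.97). The 14 points share the split between sorted cells and whole tissue, and these values are a description.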

How the data were processed

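The counts of polyA RNA reads per gene were deposited by the authors as raw counts. Per the submitters' processing notes, STAR 2.7.3a, Subread 2.0.0 with featureCounts, and mm10 were used. The sources used here name no library kit, annotation or strand setting and no rule for multi-mapping reads, so values of overlapping genes are uncertain. Per the labels, conditions stood for 2 to 3 biological replicates. No replicate pair was a copy: chi-square over degrees of freedom was at least 3.88.

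Levels are CPM of column totals. Differences were tested with edgeR 4.0.16 in R 4.3.3 (quasi-likelihood F-test, robust, TMM scaling, filterByExpr with minimum count 10 and total 15) over all genes, with Benjamini-Hochberg adjusted p under 0.05. The SE is the log2 change divided by the square root of F. The time course was 1 fit over 23 libraries. A gene that passed the filter only through a high group had to differ, so counts of tested members are no measure of all 8. Positions and transcript lengths came from GENCODE M21 (GRCm38) and promoters from RefSeq. Folds against a group without counts are bounds, computed with 3 counts for that group. Ratios resting on 1 to 3 counts carry an exact (Clopper-Pearson) 95% interval. Comparisons that share libraries are given side by side.

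The members and gene lists were chosen with earlier results of these data known. Pathway genes were named by the 3 smallest p among those called in a list. The patterns most like a member's were the 3 highest Pearson r over group means of log2 CPM (prior count 2), among genes of at least 5 CPM in a group, and 1 gene taken by this rule is not reported here. The tests were tested on simulated data, and the recovery required of them was lowered after the time course had just missed it, so members not called there may have differed. Alternatives were DESeq2 1.42.0, its size factors, library totals, no filter, the replicate block, fits on fewer or more groups and each library left out.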

Additional observations from a re-analysis of the deposited data

How the results depend on the processing

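The changes printed in the text or plotted were rerun under each alternative: every member tested in the 5 plotted comparisons, and elsewhere the members with an unadjusted p under 0.05 or a call under some alternative, a choice made after the values were seen. Of 632 such values for 50 results, 576 kept direction and side of the threshold, 30 lost a call, 8 gained one and 18 changed sign. Over all 106 member results, 70 of 1445 values changed sign, in 29 results, and none of the 70 was past the threshold before or after. The causes were not tested.

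Counts of called members changed as follows. DESeq2 called 0 members with rIL-17A. With only the groups compared in the fit, 1 member was called from day 3 to day 7 and 0 from day 7 to day 14. Leaving out 1 library at a time gave 0 to 1 called members between genotypes on day 7, 0 to 1 with rIL-17A, 2 to 4 between Vγ6 cells and whole muscle, 1 to 2 from day 1 to day 3, 0 to 1 from day 7 to day 14, 3 to 5 over time in WT and 2 to 4 over time in Tcrd-DTR muscle. The libraries behind these extremes were Tcrd-DTR replicate 1 of day 7, either rIL-17A library, WT replicate 3 of day 3, WT replicate 1 of day 3, any of WT replicates 1 and 2 of day 7 and 3 of day 14, WT replicate 1 of day 1, and Tcrd-DTR replicate 1 of day 7. Where 1 library was left in a group, it is assumed to vary like the other groups.

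Log2 changes that changed sign were all of members not called. Library totals alone gave 0.032 for Egfr with rIL-17A, 0.21 for Hbegf between satellite cells and muscle, and -0.33 for Hbegf from day 3 to day 7. For Hbegf between Vγ6 cells and muscle, DESeq2 size factors gave -0.043 and DESeq2 -0.023. Leaving out 1 library gave -0.081 to 1.26 for Areg between Vγ6 groups, -0.29 to 1.25 for Egfr between genotypes on day 7, -0.36 to 0.026 for Egfr and -0.54 to 0.27 for Erbb3 with rIL-17A, -0.073 to 0.23 for Hbegf between Vγ6 cells and muscle, and -0.72 to 0.51 for Erbb2 from day 3 to day 7. Between satellite cell genotypes it gave -0.34 to 0.91 for Areg, -0.084 to 1.46 for Ereg, -0.12 to 0.087 for Egfr and -0.18 to 0.046 for Erbb2.

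The replicate numbers did not pair the samples: same-numbered deviations from the group means correlated at -0.08 to 0.09. With the replicate block, 3 members were called over time in Tcrd-DTR muscle in place of 4, and no other count of called members changed. Among all genes the block moved the calls between genotypes from 0 to 8 on day 3, from 368 to 137 on day 7 and from 14 to 36 on day 14.

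Counts over all genes between genotypes depended on the processing. On day 7, 368 genes became 608 with library totals, 859 with DESeq2, 92 with that day fitted alone and 26 to 729 when 1 library was left out. On day 14, 14 became 55 with no filter, 66 with DESeq2, 80 alone and 2 to 47 with 1 library out. The interaction went from 111 to 211, 519 and 490 with library totals, no filter and DESeq2, and from 21 to 237 with 1 library out. With no filter, 17, 34 and 101 genes were called on day 1, on day 3 and in satellite cells. Leaving out replicate 2 of day 1 Tcrd-DTR and replicate 3 of day 7 WT, which had more genes detected than any other of their day and were chosen after the data were seen, gave 2, 2, 214, 27 and 170 genes on days 1, 3, 7 and 14 and in the interaction. With TMM effective library sizes, 23 of 112 levels moved by over 1 SD. Levels under a few CPM rest on fewer than 20 counts a library and carry large counting error.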
